A study of Homo sapiens with 20 samples.

Results

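The regions described here are new STAG1 sites that had no prior STAG2: 2067 places in the genome where STAG1 peaks appeared after STAG2 knockdown and where no STAG2 peak was listed before it. They were chosen by merging the 4 STAG1 peak lists into 117507 union sites on chromosomes 1 to 22 and X. A site was kept when it had a peak in both STAG2-KD STAG1 lists, in neither WT STAG1 list, and overlapped no peak of either WT STAG2 list. Of the union sites 74406 had a peak in both STAG2-KD STAG1 lists, and 4591 of these (3.91% of the union) had none in WT and are called new. The 2067 regions made up 45% of the new sites and 1.76% of the union. The other 2524 new sites overlapped a WT STAG2 peak and serve as the closest comparison.

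The study profiled STAG1, STAG2, CTCF and SMC1A by chromatin immunoprecipitation with sequencing (ChIP-seq) in M14, an established human melanoma cell line, with 2 replicates of each antibody in each condition and 16 peak lists in all. Both conditions carried a doxycycline-inducible shRNA against STAG2 and were selected with puromycin. STAG2-KD cells received doxycycline, for 5 days where the labels give a time, and the samples called WT did not. A single line and a single hairpin were used, the WT cells are not parental cells without the construct, and nothing says that the replicates were separate cultures, so the spread between them may be technical. The replicates also differed in how DNA fragments were selected by size and in the significance limit of the deposited lists. STAG2 lists were 0.739 and 0.892 times as long in STAG2-KD as in WT in replicates 1 and 2, the check of the knockdown that the peak lists allow.

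Cohesin is a ring of SMC1A, SMC3 and RAD21 that holds and loops DNA, and each ring carries either STAG1 or STAG2. CTCF is a zinc finger protein that binds a long DNA motif and stops cohesin as it extrudes loops, so most stable cohesin sites are CTCF sites. STAG1 is known for CTCF-bound sites at domain borders, and STAG2 also for sites without CTCF at enhancers and promoters. STAG2 is recurrently inactivated in cancer, melanoma included, and STAG1 then supplies the remaining cohesin. SMC1A, a part of both complexes, serves as a readout of total cohesin here. AP-1, named again below, is a dimer of JUN and FOS family proteins that binds enhancers.

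The regions differed in the letters under the peak, so 4 of them are shown first, each as 201 bases of the plus strand of GRCh37 centred on the summit of replicate 1. Capitals mark matches to the core CTCF motif, searched as CC, any 3 bases, AG, any 2 bases and GGC, or to the AP-1 motif, searched as TGANTCA, on both strands, where N is any base. The site nearest to MAX, chr14:65637756-65637956, and the one in a HAUS8 intron, chr19:17180122-17180322, had the CTCF motif 2 and 4 bp after the summit and CTCF peaks in all 4 lists. The site in an AGBL4 intron, chr1:49034510-49034710, had both motifs, at -57 (CTCF) and -20 (AP-1) from the summit, and no peak of any other antibody. The site in an AHI1-DT intron, chr6:135858876-135859076, had an AP-1 motif 85 bp after the summit and no CTCF peak.
Near MAX: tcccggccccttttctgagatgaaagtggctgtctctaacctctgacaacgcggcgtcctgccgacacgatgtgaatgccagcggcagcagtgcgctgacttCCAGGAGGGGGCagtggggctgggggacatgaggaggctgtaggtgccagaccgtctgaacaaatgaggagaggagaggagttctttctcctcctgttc
HAUS8 intron: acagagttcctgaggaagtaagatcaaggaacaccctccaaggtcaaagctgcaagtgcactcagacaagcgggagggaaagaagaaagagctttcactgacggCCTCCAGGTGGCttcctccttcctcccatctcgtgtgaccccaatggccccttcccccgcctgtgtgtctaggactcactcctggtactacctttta
AGBL4 intron: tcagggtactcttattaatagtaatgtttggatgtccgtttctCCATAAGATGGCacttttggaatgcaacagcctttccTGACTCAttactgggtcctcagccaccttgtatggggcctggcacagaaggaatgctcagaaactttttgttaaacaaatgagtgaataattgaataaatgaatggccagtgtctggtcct
AHI1-DT intron: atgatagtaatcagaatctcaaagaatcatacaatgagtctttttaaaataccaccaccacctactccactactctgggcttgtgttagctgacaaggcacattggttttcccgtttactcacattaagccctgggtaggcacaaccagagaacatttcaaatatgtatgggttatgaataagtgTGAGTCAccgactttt

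The new STAG1 peaks were weak and narrow. Fold enrichment over the local background had a median of 4.30 in STAG2-KD replicate 1, with a range of 2.53 to 12.6, and of 3.03 in replicate 2, with a range of 1.68 to 8.02. Stable STAG1 sites, the 54417 with a peak in all 4 STAG1 lists, had medians of 18.7 and 11.8. The new sites with WT STAG2 had medians of 4.29 and 3.16, so weakness was shared by both kinds of new site. Ranked by fold within its list, the median region stood at percentile 18.5 in replicate 1 and 27.3 in replicate 2, and only 0.484% and 4.06% of the regions stood above the median peak of those lists. The reads behind a summit, worked out from the fold and p-value of each peak, numbered 12 at the median in replicate 1 (8 to 35) and 16 in replicate 2 (9 to 36), over median backgrounds of 1.98 and 3.97. These values chose the regions and are given as description only.

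**Figure D1:**
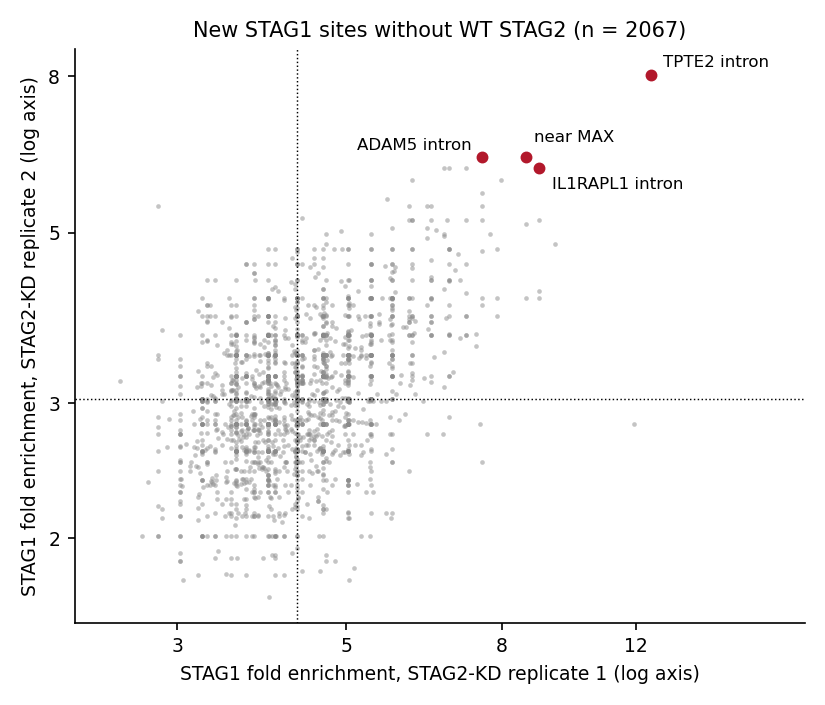
STAG1 fold enrichment of each of the 2067 regions in STAG2-KD replicate 1 (x axis) and replicate 2 (y axis), both on log axes. Grey points are regions, dotted lines the medians of 4.30 and 3.03, and red points the 4 highest ranked regions. Most regions crowd around the medians, with the TPTE2 intron alone at the upper right.

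The regions were 288 bp wide at the median (150 to 876), against 335 bp for new sites with WT STAG2 and 915 bp for stable sites. The summits of both replicates lay 50 bp apart at the median, and 81.6% of the regions had them within 100 bp, against 38 bp and 90.0% at stable sites. Within 50 bp the shares were 50.0% and 66.9%. The rule itself put both peaks in 1 merged site, and a narrow site leaves less room for a gap, so nothing is read from this comparison.

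Being absent from a WT list meant that no peak passed its limit, not that no protein was bound. The lowest −log10 q listed was 2.00 and 0.311 in the WT STAG1 lists of replicates 1 and 2, and the regions themselves reached down to 2.01 and 0.399 in the STAG2-KD lists. The rule had more near misses in replicate 2 than in replicate 1: 7972 union sites met it in STAG2-KD replicate 2 but lacked a STAG1 peak in replicate 1, and 1035 the other way round. The STAG2-KD STAG1 list was 1.35 times as long as the WT list in replicate 1 and 1.06 times in replicate 2. Its lowest background was 1.04 and 1.03 times the WT one. That background was the same in the WT STAG1 and WT STAG2 lists, 1.72 and 3.50, so it does not measure STAG1 depth. A read added 0.826 and 0.879 to the signal in the WT STAG1 lists and 1 in the STAG2-KD ones. How far this scaling bore on absence from WT was not tested. The lists of each antibody were also cut to the length of its shortest, which took the WT STAG2 lists from 79048 and 118984 peaks to 58418. The STAG2 part of the rule was then looser too. With these lists 1816 sites met the rule, and only 151 of the 2067 regions (7.31%) were among them. Requiring −log10 q of at least 3 in both STAG2-KD lists left 1002 of them.

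By the rule no prior STAG2 peak was listed under the peak, and the distance to the nearest one was measured. The WT STAG2 lists held 79048 and 118984 peaks, and no distance was measured from other sites or random positions. Closeness is therefore not read as a trait of the regions. The nearest WT STAG2 peak of either list lay 4920 bp away at the median, 384 regions (18.6%) had one within 1 kb, 1392 (67.3%) within 10 kb and 94.2% within 50 kb. The distance ran from 1 bp, where the intervals touched, to 234754 bp. At the edge of the rule, 29 regions lay within 50 bp of a WT STAG2 peak, and 44 of the 2524 new sites with WT STAG2 overlapped it by at most 50 bp. The distance to the nearest WT STAG1 peak was alike, 5222 bp at the median.

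**Figure D2:**
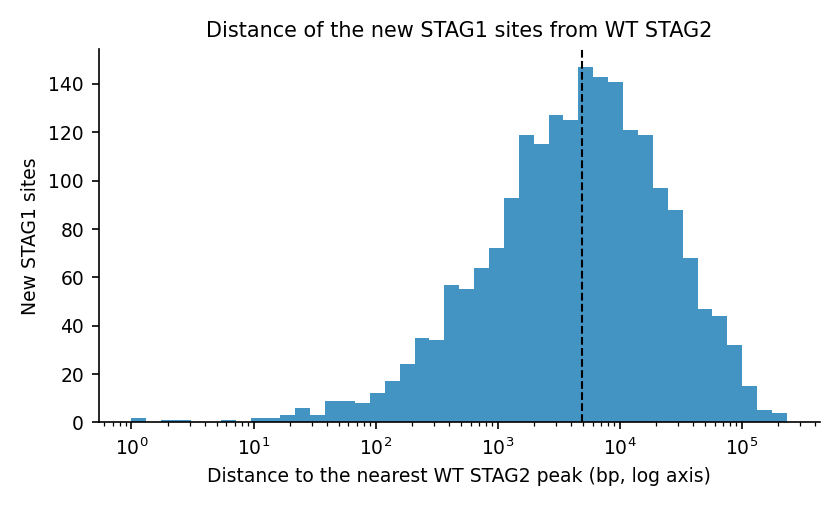
Number of regions (y axis) by distance to the nearest WT STAG2 peak of either list (x axis, bp, log axis); the dashed line is the median of 4920 bp. The bulk of the regions lies between 1 and 50 kb, with 384 of 2067 within 1 kb.

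Union sites with no WT STAG2 peak became new STAG1 sites more often than sites with one, 9.5% of 21769 against 2.64% of 95738. Since a site with WT STAG2 usually had WT STAG1 too and so could not be new, these shares describe the lists and carry no test. At the new sites with WT STAG2, the STAG2 peak was in both WT lists at 887, in replicate 1 only at 7 and in replicate 2 only at 1630.

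The 10 highest ranked regions, by the sum of their ranks in both STAG2-KD STAG1 lists, lay in or near genes of many kinds. The strongest, chr13:20034237-20034615, was in an intron of TPTE2, which encodes a phosphatase-like membrane protein. STAG1 fold there was 12.6 and 8.02 in STAG2-KD replicates 1 and 2, from 34 and 36 reads. CTCF fold was 5.07 and 5.04 in WT and 10.2 and 6.57 in STAG2-KD, and SMC1A had no peak in any list. TPTE2 has near-identical copies elsewhere in the genome, as do the pseudogenes ADAM5 and SPATA31E3P that held the fourth and eighth ranked regions, and the placing of their reads is uncertain.

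The third ranked region, chr14:65637519-65638290, whose letters are printed above, was intergenic and 68492 bp from the start of MAX, the dimer partner of MYC. STAG1 fold was 8.61 and 6.28 in STAG2-KD. CTCF fold was 5.07 and 2.99 in WT and 16.8 and 13.4 in STAG2-KD, so both STAG2-KD values were well above both WT values. SMC1A had no WT peak and reached 8.95 and 6.33 in STAG2-KD, and STAG2 itself was listed only in STAG2-KD replicate 2, at 3.17.

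CTCF was also stronger in STAG2-KD at some other leading regions, though not at all of them. At chr1:53946331-53946730, 20882 bp from the start of DMRTB1, CTCF fold was 22.6 and 14.7 in WT and 27.5 and 24.5 in STAG2-KD. SMC1A fold at that region was 6.12 and 4.36 in WT and 10.8 and 9.90 in STAG2-KD, so cohesin was already listed there before the knockdown. The HAUS8 intron region, chr19:17180057-17180428, in a gene for a subunit of the augmin complex of the mitotic spindle, had CTCF at 6.70 and 6.99 in WT and 12.2 and 11.7 in STAG2-KD. At the DMRTB1 and HAUS8 regions both STAG2-KD values exceeded both WT values. The ADAM5 region had CTCF in replicate 2 only, at 3.53 in WT and 2.87 in STAG2-KD. At the SPATA31E3P region CTCF was 4.55 in WT and 3.58 in STAG2-KD of replicate 2, and in replicate 1 it was listed in STAG2-KD only, at 4.24.

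Of the leading regions at promoters of protein-coding genes, 4 are described. The first was at the start shared by GPLD1, which cleaves glycolipid anchors, and ALDH5A1, which breaks down a GABA product (chr6:24495048-24495829), with its summit in a coding exon of ALDH5A1 and STAG1 at 7.53 and 5.63. SMC1A there was listed in replicate 2 only, at 3.54 in WT and 2.75 in STAG2-KD. The summit at IRF5, a transcription factor of interferon and inflammatory genes (chr7:128577763-128578284), fell in an intron, the midpoint was 2 bp from an annotated start, and STAG1 fold was 7.53 and 4.73. SMC1A at IRF5 was listed in WT replicate 2 only, at 2.70, and in both STAG2-KD lists, at 4.71 and 4.68. The start of EHBP1L1, a membrane traffic adaptor (chr11:65344739-65345256), had STAG1 at 6.56 and 5.04, with SMC1A at 3.23 in WT replicate 2 and at 4.71 and 6.42 in STAG2-KD. The start of TAFA5, which encodes a secreted chemokine-like protein (chr22:48884780-48885216), had STAG1 at 7.89 and 4.12 and SMC1A in STAG2-KD replicate 2 only, at 3.30. Of these 4 promoters ALDH5A1 had CTCF in all 4 lists, at 6.66 and 7.75 in WT and 12.2 and 8.92 in STAG2-KD.

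Regions that gained SMC1A came with and without CTCF. The AHI1-DT intron region (chr6:135858784-135859191), in a non-coding gene beside the cilium gene AHI1, had SMC1A at 5.35 and 4.40 in STAG2-KD, no WT SMC1A peak and no CTCF peak at all. The region 40986 bp from CHST15, a chondroitin sulfotransferase gene (chr10:125756895-125757403), had the AP-1 motif too, with SMC1A at 6.60 in both STAG2-KD lists and no CTCF peak. The LRP1B intron region described below instead had CTCF in STAG2-KD only, at 5.34 and 6.55, together with SMC1A at 5.65 and 3.90.

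The 5 strongest regions with no other peak in any list lay in introns of AGBL4 and 2 non-coding genes or far from genes, the nearest protein-coding starts being SPATA6, ZNF608, NOX3, IRX2 and TMTC1. Their STAG1 fold in STAG2-KD was between 5.38 and 8.61 in replicate 1 and between 4.12 and 5.20 in replicate 2. In all, 305 regions (14.8%) had no peak of CTCF, SMC1A or STAG2 in any of the 12 lists, so STAG1 alone was listed there. Among all 21769 union sites with no WT STAG2 peak, the part of the union that could show this, the share was 19.2%. Among the weakest 3 regions, that in a DISC1FP1 intron (chr11:90125895-90126166) had STAG1 at 3.03 and 1.87 but CTCF in all 4 lists.

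**Figure D3:**
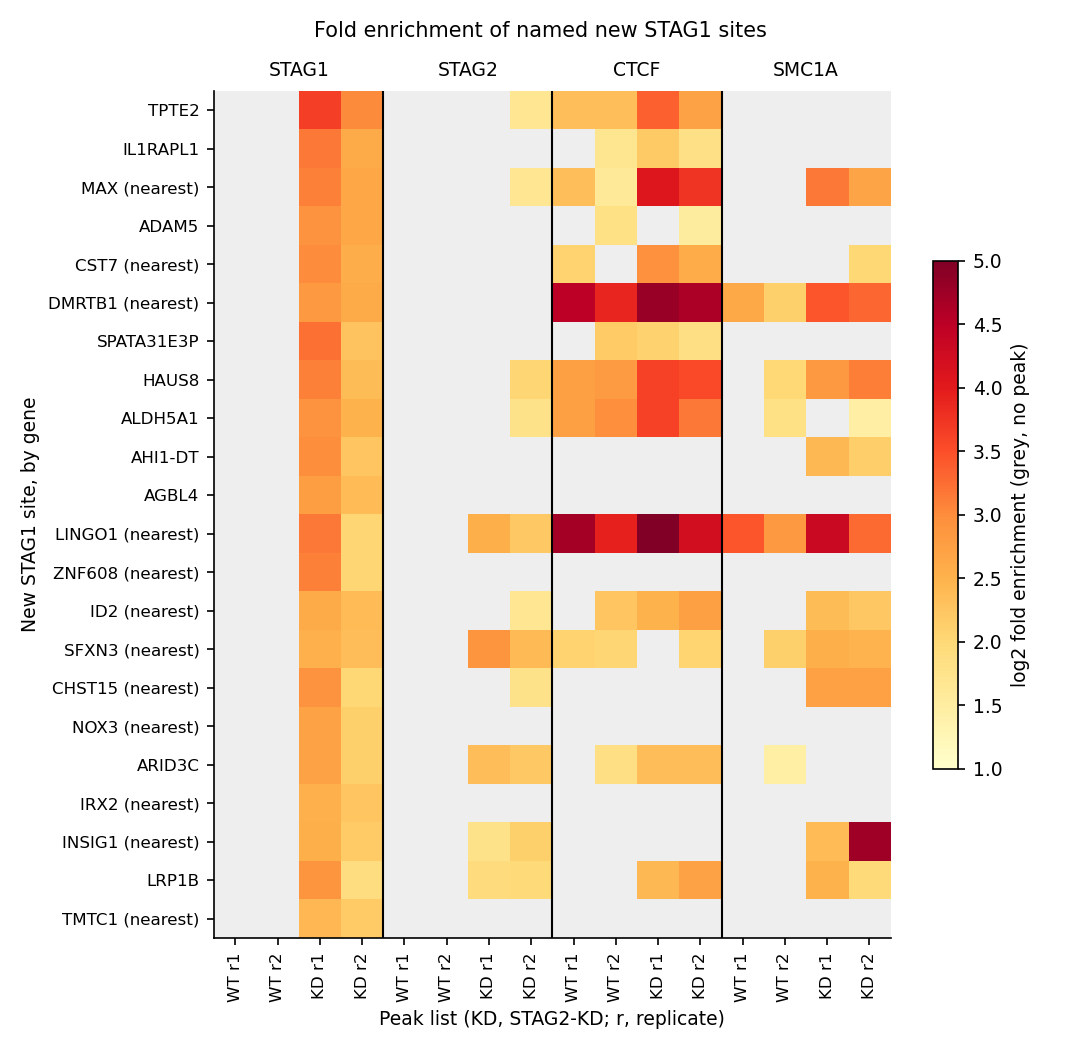
Fold enrichment (colour, log2 scale; grey, no peak) of named regions (rows, highest ranked first, by host gene or nearest protein-coding start) in the 16 peak lists (columns, grouped by antibody). STAG1 is grey in WT and STAG2 grey in WT by the rule, while CTCF and SMC1A range from absent in all lists to strong in all 4.

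STAG2 was listed at some of these regions after the knockdown, far more often in replicate 2 than in replicate 1. The STAG2-KD STAG2 lists had a peak at 52 regions (2.52%) in replicate 1 and 604 (29.2%) in replicate 2, where 2.11% and 4.48% of all union sites had STAG2 in STAG2-KD and not in WT of that replicate, and 50 regions (2.42%) had one in both, where 0.211% of all union sites gained STAG2 in both. The rule fixed the absence of STAG2 in WT, so nothing is read from the comparison. The strongest of the 50 lay 87507 bp from the start of LINGO1, which encodes a Nogo receptor partner (chr15:78200643-78200855), with STAG2 at 5.81 and 4.65 and CTCF and SMC1A in all 4 lists. The region near INSIG1, a regulator of sterol synthesis, had STAG2 at 3.36 and 4.35, SMC1A at 5.22 and 26.9 in STAG2-KD and none in WT, a large gap between the replicates. An LRP1B intron region (chr2:141452809-141453103), in a lipoprotein receptor gene, had STAG2 at 3.77 and 3.89.

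SMC1A was listed at many more of the regions in STAG2-KD than in WT. In replicate 1 the WT list had a peak at 129 regions (6.24%) and the STAG2-KD list at 499 (24.1%), and in replicate 2 these were 660 (31.9%) and 1127 (54.5%). The share was 20.2 ± 3.32 percentage points (SD, n = 2) higher, upward in both replicates, while the replicates themselves differed by more than that. A two-sided exact permutation test over the 4 libraries gave p = 0.667 (0.667 after Benjamini-Hochberg adjustment over 6 tests), where the smallest p that 2 against 2 allows is 0.333. The design could therefore not call the difference at 0.05. The rule also asked for STAG1 in STAG2-KD and for no STAG1 or STAG2 peak in WT, and SMC1A is a part of both complexes. A higher SMC1A share in STAG2-KD was thus partly set by the rule, and the difference is given as description only.

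CTCF differed in the same direction by less. The share of regions with a CTCF peak was 19.9% and 30.4% (WT and STAG2-KD, replicate 1) and 43.0% and 51.1% (replicate 2), a difference of 9.34 ± 1.71 points (SD, n = 2; exact permutation p = 0.667, adjusted p = 0.667). The lowest background of the STAG2-KD list was 1.10 and 0.987 times the WT one for SMC1A and 1.07 and 1.03 times for CTCF. SMC1A lists were 1.11 and 1.01 times as long in STAG2-KD. Peaks of all 4 antibodies of a condition and replicate were called against 1 shared input, whose part in the shared direction was not tested.

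**Figure D4:**
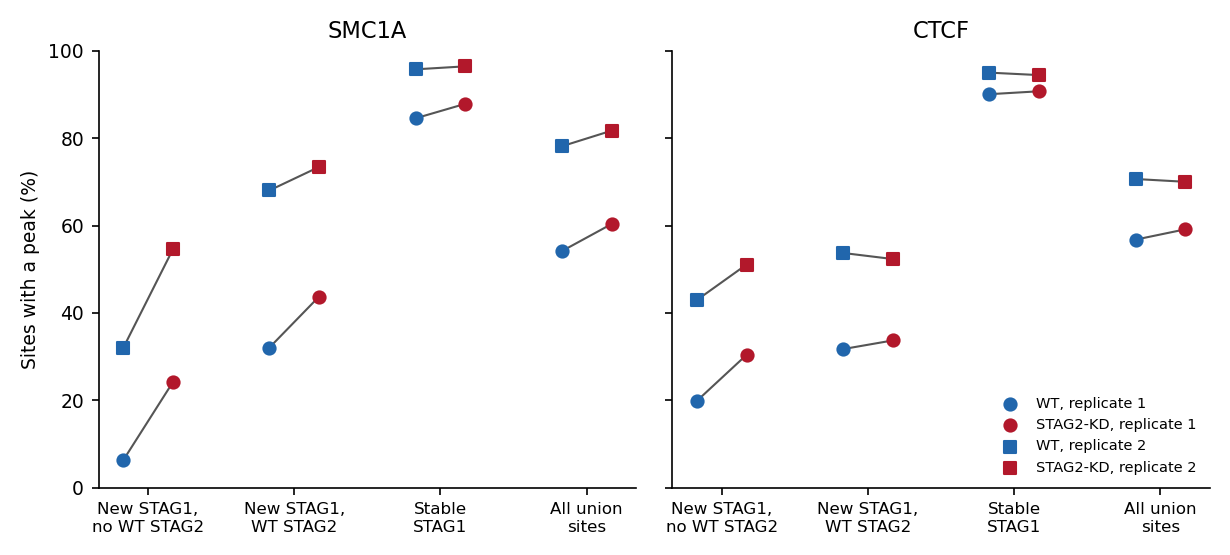
Share of sites with an SMC1A peak (left) and a CTCF peak (right) in each library, for the new STAG1 sites without and with a WT STAG2 peak, stable STAG1 sites and all union sites; lines join WT (blue) and STAG2-KD (red) of a replicate. The steepest lines are those of SMC1A at the regions without WT STAG2, from 6.24% to 24.1% and from 31.9% to 54.5%. The rule partly set this direction.

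The new sites with WT STAG2 had a higher SMC1A share and a smaller difference. The share was 32.1% and 43.7% (WT and STAG2-KD, replicate 1) and 68.0% and 73.4% (replicate 2), a difference of 8.54 ± 4.45 points (SD, n = 2). Their CTCF share changed by 0.297 ± 2.38 points. Over all union sites SMC1A changed by 4.88 ± 1.86 points and CTCF by 0.860 ± 2.12. Whether the difference at the regions without WT STAG2 departed from these was not tested.

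In each of the 4 SMC1A libraries the regions without WT STAG2 had a lower share than the new sites with it, by 25.1 points on average (difference -25.1, from -36.1 to -18.9). For CTCF the difference was -6.79 points (-11.9 to -1.25), also in the same direction in 4 of 4 libraries. Against stable STAG1 sites the differences were -61.9 points for SMC1A and -56.5 for CTCF. Each of these 4 comparisons gave p = 0.125 in a two-sided exact sign-flip (permutation) test over 4 libraries, the smallest it allows, and 0.188 after adjustment over 6 tests. No test could reach 0.05. The rule kept the regions for having no WT STAG1 or STAG2 peak, while the sites compared had a WT peak of STAG2 or STAG1. SMC1A is a part of both complexes, so a lower WT share was partly set by the rule. These 4 comparisons are therefore given as description only. With lists cut to equal length the SMC1A difference from new sites with WT STAG2 was still negative in 4 of 4 libraries, but the CTCF difference from them was -0.654 points, from -9.00 to 6.68, and negative in 2 of 4 libraries (exact sign-flip p = 0.875).

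Counted site by site, 162 regions (7.84%) had SMC1A in both STAG2-KD lists and neither WT list, where 1.69% of all union sites did, and 5 (0.242%) showed the reverse, where 0.637% of the union did. Most union sites had SMC1A in WT and could not gain it. Among sites with no WT SMC1A peak, the gain in both replicates was 11.5% of 1404 regions, 11.9% of 799 new sites with WT STAG2, 12.2% of 2222 stable sites and 8.12% of the union. Counted this way the regions stood close to the other sites at which STAG1 was present. The 808 lost STAG1 sites, with STAG1 in both WT lists and neither STAG2-KD list, gained SMC1A at 1.39% of 216 such sites, and their SMC1A share changed by -16.7 ± 0.875 points (SD, n = 2).

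CTCF was gained in both replicates at 47 regions (2.27%; union 0.469%) and lost at 6 (0.29%; union 0.462%). Among sites with no WT CTCF peak the gain was 4% of 1174 regions, 1.9% of new sites with WT STAG2, 1.63% of stable sites and 1.66% of the union. The difference between these shares was not tested. CTCF in all 4 lists was found at 362 regions (17.5%, against 52.6% of the union) and in no list at 910 (44%, against 24.9%). New sites with WT STAG2 had CTCF in all 4 lists at 25.8% and in no list at 40.4%. At lost STAG1 sites these shares were 33.3% and 39.2%, so lack of CTCF was not particular to the regions.

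Where a peak was listed in both conditions, its rank by fold was compared between the lists. The median shift was 12.6 percentiles of the SMC1A list in replicate 1 (100 regions) and 9.82 in replicate 2 (574 regions), and 3.82 (366 regions) and 3.17 (791 regions) for CTCF, where a positive shift is a higher place in STAG2-KD. A percentile also moves with the length of a list, and the SMC1A list of replicate 1 was 1.11 times as long in STAG2-KD. Ranks counted from the top, in percent of the shorter list, are not moved by weak peaks added to a list, and gave 7.33 and 9.55 for SMC1A and 2.07 and 6.47 for CTCF. Counted from the top, the shifts at new sites with WT STAG2 were -1.67 and 2.10 for SMC1A and 0.150 and 1.02 for CTCF, and at stable sites -0.161 and 0.0222 for SMC1A and 0.406 and 0.114 for CTCF. These shifts are ranks among the peaks of a list and carry no test.

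SMC1A was also higher in STAG2-KD where no CTCF peak was listed. At the 910 regions with CTCF in no list, the SMC1A share was 5.16% and 24.9% (WT and STAG2-KD, replicate 1) and 30.1% and 57.9% (replicate 2), and 98 of them (10.8%) gained it in both. At the 406 regions with CTCF in both WT lists it was 15.8% and 35.0%, and 49.0% and 66.5%, and 25 gained it in both. Over all 1157 regions with a CTCF peak in any list it was 7.09% and 23.5%, and 33.4% and 51.9%, so their share was above that of the CTCF-free regions in both WT libraries and below it in both STAG2-KD libraries. The SMC1A share was higher in STAG2-KD than in WT of the same replicate in each of these 3 groups. It was also higher at the 1019 new sites with WT STAG2 and CTCF in no list, 31.6% and 49.7%, and 76.1% and 84.5%. Of those sites 6.08% gained it in both, against 2.03% of new sites with WT STAG2 and CTCF in both WT lists. Over the union 1.69% of sites did. More of the new sites with WT STAG2 had SMC1A in WT and so could not gain it, and the differences were not tested.

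The letters under the peaks also differed among the regions. A CTCF motif lay within 100 bp of the summit at 212 regions (10.3%), against 2.85% of the windows placed 5 kb from the same summits, 18.5% of all union sites and 29.7% of stable sites. An AP-1 motif lay there at 334 regions (16.2%), against 6.58% in the windows 5 kb away, 10.5% of the union and 7.03% of stable sites. New sites with WT STAG2 had nearly the same shares, 10.8% and 16.4%. Both motifs were found together at 19 regions. The E-box CACGTG, bound by MITF and MYC family proteins, was at 3.73% (3% away), and the interferon-response letters GAAA, any 2 bases and GAAA at 3.58% (3.92% away), so neither stood far from its level in the neighbouring windows.

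AP-1 letters gathered at regions without CTCF. They were found at 27.7% of the 910 regions with CTCF in no list and at 5.91% of the 406 with CTCF in both WT lists, where the level 5 kb away was 6.65%. CTCF letters showed the opposite, 3.96% and 24.1%. This split was shared by other STAG1 sites, since AP-1 letters were at 20.5% of union sites, 24.9% of stable sites and 28.9% of new sites with WT STAG2 that had CTCF in no list. At lost STAG1 sites with CTCF in no list the share was 11.4% of 317. Median GC content around the summit was 46.8% at the regions and 47.3% in the union.

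**Figure D5:**
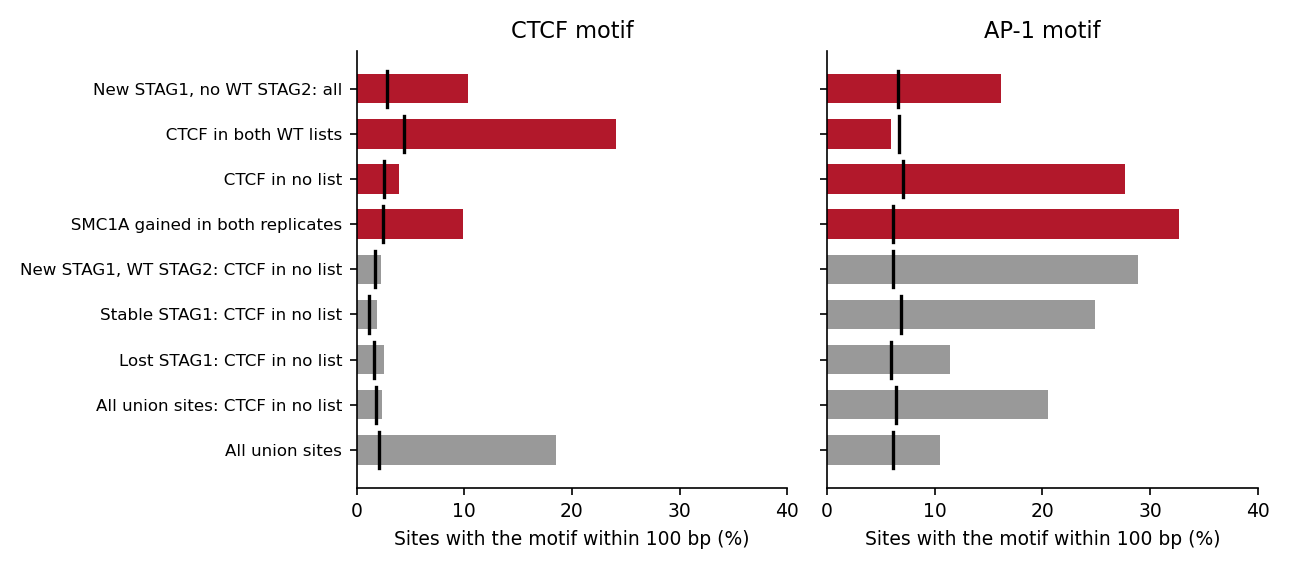
Share of sites with a CTCF motif (left) or an AP-1 motif (right) within 100 bp of the STAG1 summit (x axis, percent), for the regions and subsets of them (red) and for other sites (grey); black ticks give the share in windows 5 kb away. AP-1 letters are at 27.7% of regions with CTCF in no list, against 20.5% of such union sites. They are at 32.7% of regions that gained SMC1A in both replicates, and at 532 of the 1988 union sites that did.

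Regions with an AP-1 motif had the larger SMC1A difference. At the 334 of them the SMC1A share was 5.39% and 36.2% (WT and STAG2-KD, replicate 1) and 33.2% and 71.6% (replicate 2). At the 1733 regions without it the shares were 6.41% and 21.8%, and 31.7% and 51.2%. Gain of SMC1A in both replicates was counted at 15.9% of the first and 6.29% of the second. Over the union it was 4.31% with AP-1 letters and 1.38% without, and at new sites with WT STAG2 9.69% and 2.61%. Of the 162 gaining regions 53 (32.7%) had AP-1 letters, and of the 1988 gaining union sites 532 had them. With CTCF in no list the contrast was similar, with 4.76% and 37.3%, and 34.1% and 77.8%, at 252 regions with AP-1 letters, and 5.32% and 20.2%, and 28.6% and 50.3%, at 658 without. Over all union sites with AP-1 letters the shares were 42.8% and 57.9%, and 74.7% and 85.5%, so the direction was not confined to the regions. A match to the letters is not a measured AP-1 site, and the difference between regions with and without them was not tested.

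By place in the annotation, the midpoint was within 1 kb of a transcript start at 334 regions (16.2%), against 22.5% of the union and 27.1% of new sites with WT STAG2. Introns held 921 (44.6%, against 44.2% of the union), exons 102 (4.93%, against 4.48%) and intergenic sequence 710 (34.3%, against 28.8% of the union). The median distance to a transcript start was 8699 bp, against 6774 bp over the union. Each share is 1 value for 1 set of sites and carries no test.

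Within the regions the SMC1A share differed by place. At promoter regions the SMC1A share was 15.3% and 41.3% (WT and STAG2-KD, replicate 1) and 57.2% and 72.2% (replicate 2), and at intergenic regions 4.37% and 20.7%, and 24.8% and 48.6%. CTCF differed less between places, with 24.6% and 35.6%, and 47.0% and 53.9%, at promoters, and 17.9% and 28.6%, and 43.0% and 49.7%, in intergenic sequence. STAG1 fold was alike, with medians of 4.21 at promoters and 4.30 in intergenic sequence in replicate 1 and of 3.03 and 3.10 in replicate 2. AP-1 letters were at 8.98% of promoter regions and 18.2% of intergenic ones, and over the union at 6.27% and 11.6%. SMC1A and CTCF shares by place were not taken at other sites, and the differences were not tested.

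Among the regions, the strength of the new STAG1 peak went with CTCF more than with SMC1A. Of the 692 strongest regions, 40.0% and 64.5% had CTCF in STAG2-KD replicates 1 and 2, against 23.3% and 39.5% of the 686 weakest. SMC1A in STAG2-KD was at 27.0% and 53.8% of the strongest and 20.3% and 53.8% of the weakest. AP-1 letters ran the other way, at 13.6% of the strongest and 18.4% of the weakest. Strength was ranked in the STAG1 lists that chose the regions, and other sites were not divided in this way. The differences were not tested and are given as description only.

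The regions were spread over all chromosomes, from 1.26% of the union sites on chromosome 14 to 2.7% on chromosome 22. Another region lay within 100 kb of 484 of them (23.4%). The densest 100 kb window, chr19:41018660-41115891, between the first and last midpoint, held 5 regions among 20 union sites beside SPTBN4, SHKBP1 and LTBP4, which binds latent TGF-beta. The next held 4 of 10 union sites, at chr8:21992623-22091748 around BMP1 and LGI3, and 4 of 15, at chr11:1569785-1593727 around DUSP8 and the KRTAP5 keratin-associated genes, which are near-identical copies of each other. Counted by gene with 10 kb to each side, CAMTA1 had most, with 7 regions among 68 union sites over 984253 bp, followed by PLXNA4 with 5.

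Of 20090 protein-coding genes, 1437 (7.15%) had a region within 10 kb. Of 20 interferon signalling genes 1 had one. Of 15 genes of cohesin and its regulators 1 had one, MAU2, the partner of NIPBL in loading cohesin (chr19:19475760-19476063), with STAG1 at 5.02 and 2.30. Of 15 melanocyte genes 1 had one, OCA2, a melanosome ion transporter (chr15:28118236-28118648), with STAG1 at 3.23 and 3.03 and no SMC1A peak in any list.

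Of 15 genes of the dedifferentiated melanoma state 2 had a region, JUN and TEAD1. The region in the untranslated part of JUN, which encodes a subunit of AP-1 (chr1:59246496-59246933), had STAG1 at 3.92 and 2.53 and SMC1A in all 4 lists, at 4.14 and 17.5 in WT and 4.97 and 25.6 in STAG2-KD. The region in an intron of TEAD1, the DNA-binding partner of YAP (chr11:12791624-12791791), was 17 bp from a WT STAG2 peak and so stood at the edge of the rule. Of 15 MAPK feedback genes 3 had one, DUSP4, CCND1 and MYC. The upper of 2 regions near DUSP4, a phosphatase that switches off ERK signalling (chr8:29187969-29188145), gained SMC1A, at 6.12 and 5.23, with no WT SMC1A and no CTCF peak. Near MYC, 3102 bp from its start (chr8:128744465-128744691), STAG1 was at 4.47 and 2.74 and SMC1A at 4.16 and 2.91 in WT and 3.86 and 3.30 in STAG2-KD. With 1 to 3 genes a list, the counts are too small to be set apart from the 7.15% of all genes, and no test was made of them.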

How the data were processed

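Peak lists of 16 ChIP-seq libraries were analysed, and the 4 input libraries had no list here. The submitters' processing notes name Bowtie2 and MACS2 for replicate 1, and CASAVA 1.4, BWA, SAMtools, Picard, MACS2 and deepTools for replicate 2, all on hg19. The authors called narrow peaks for each library against its input, and each deposited list gives a score, fold enrichment (a ratio to local background), −log10 p, −log10 q and a summit offset. The deposited score is 10 times −log10 q in replicate 1 and 10 times −log10 p in replicate 2. Read totals are not given in the sources used here. The lists held 58418 to 150282 peaks on chromosomes 1 to 22 and X, and replicate 1 was limited by q and replicate 2 by p, so shares were compared within replicates. With 8 to 36 reads at a summit, each value rests on few reads.

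Sites were merged and compared at an overlap of 1 bp in Python 3.11.15 with numpy 2.4.6 and scipy 1.17.1. Reads at a summit were recovered from fold and −log10 p, at a tolerance of 0.02 reads, and came out whole at all 2067 regions in both STAG2-KD STAG1 lists. In simulated data 200 of 200 planted sites were recovered. Genes came from GENCODE v44 on GRCh37, with a promoter within 1 kb of a transcript start. SMC1A and CTCF shares were compared by exact permutation and sign-flip tests over libraries, adjusted over 6 tests. The pairing of replicate numbers was checked by the correlation of replicate deviations between conditions, which over STAG1, STAG2, CTCF and SMC1A came to 0.133, 0.397, 0.480 and 0.375. Libraries of a number share the size selection that the labels give, and the labels name no shared culture.

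The regions and gene lists were chosen with earlier results of these data known. Named were the 10 strongest regions, 5 each of those at promoters, with CTCF in all 4 lists, with SMC1A gained, with no other peak and with STAG2 in STAG2-KD, up to 3 per gene list, the 3 densest windows and the 3 weakest. Some of these 38 regions are given only in counts or the plot of named regions, and a few items are not reported here.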

Additional observations from a re-analysis of the deposited data

How the results depend on the processing

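The results were computed again under other rules, lists, windows and limits and with the replicate block, giving 101 values. A turn of direction was scored only for differences that had a test, and none of these averages turned. Of the 101 values, 83 stayed within their spread or on the same side of 0.05. No test could pass 0.05, so for the tested differences that side was fixed in advance and the tally is no measure of stability. Both replicates are needed for the number of regions: it was 10171 by replicate 2 alone and 16579 by replicate 1 alone, and 1002 under the stricter gain, whose construction keeps fewer peaks. From either replicate alone the promoter share was 17.7% and 26.0%, the CTCF motif share 6.20% and 11.0%, the AP-1 motif share 11.7% and 14.7%, and the share gaining SMC1A 23.8% and 25.6%, where a gain needs 1 replicate only. With lists of equal length the promoter share was 19.0%, the CTCF motif share 15.8%, the AP-1 motif share 12.7% and the share gaining SMC1A 10.8%, over mostly different regions (151 shared). The CTCF difference from new sites with WT STAG2 was then -0.654 points (exact sign-flip p = 0.875), against -6.79 (p = 0.125). The share gaining SMC1A was 9.84% at the common threshold and 9.28% under the stricter gain. The promoter share was 11.2% with no WT peak within 1 kb and 27.0% with 2.5 kb as the promoter limit. With 50 bp around the summit the CTCF motif share was 7.89% and the AP-1 share, chosen after seeing the data, 9.39%. The ranks counted from the top of a list were also chosen after seeing the data, and kept the sign of all 4 shifts at the regions. For the other values the cause was not tested.

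With the replicate block, pairing WT and STAG2-KD of a number, the SMC1A difference of 20.2 points and the CTCF difference of 9.34 points each had an exact sign-flip p of 0.5, the smallest that 2 pairs allow, so it changed no call. Of the 38 named regions 26 to 38 met each other rule. The lists give peaks past a limit, few reads lie under each new peak, and 2 replicates made with different size selection leave no test that could pass 0.05.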
